A study of Homo sapiens with 4 samples.

Results

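The 88 genes described here encode the nuclear subunits of oxidative phosphorylation, compared between UMSCC74B libraries labelled PRMT5 KD and their controls. They were taken by name from 29655 gene names in the count tables. The names were those of the NDUF subunits of complex I, SDHA to SDHD of complex II, the UQCR genes and CYC1 of complex III, the nuclear COX genes of complex IV and the ATP5 genes of complex V. NDUFAF assembly factors were left out, as were the pseudogenes UQCRBP1 and ATP5EP2, which had at most 10 counts in any library. NDUFA4 carries a complex I name but is a subunit of complex IV and was counted there, which gave 37 genes for complex I, 4 for complex II, 10 for complex III, 18 for complex IV and 19 for complex V. The names took in 6 genes that are not agreed subunits, namely UQCRHL, COX7A2L, ATP5L2, ATP5S, ATP5SL and the read-through ATP5J2-PTCD1. UMSCC74B is an established cell line derived from a squamous carcinoma of the head and neck. The 2 control libraries came from cells given control shRNA, with the genotype label WT, and the 2 libraries labelled PRMT5 KD from cells given PRMT5 shRNA, all grown for 72 h in DMEM with serum. The labels describe plasmid transfection and the methods lentiviral particles, and both groups carried a vector. No label says that the libraries came from separate cultures, so the p-values measure only the spread between these libraries, which may be technical.

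Oxidative phosphorylation couples the oxidation of NADH and succinate to the synthesis of ATP in the inner mitochondrial membrane. Complex I and complex II pass electrons to coenzyme Q, complex III passes them on to cytochrome c, and complex IV reduces oxygen to water. Complexes I, III and IV pump protons, and complex V, the ATP synthase, uses the gradient. Each complex except complex II is built from subunits of both genomes, and the subunits encoded by mitochondrial DNA were not analysed here.

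The libraries held 52185289 to 65964558 counts on named genes, with 79.4% to 81.3% of them on protein-coding genes and 14.2% to 18.0% on rRNA in 3 libraries. PRMT5 KD replicate 1 stood apart, with 71.5% on protein-coding genes and 26.2% on rRNA, and results without it are given beside the counts of calls. The PRMT5 transcript (chr14:22920525-22929408, GRCh38) went against the label, with control levels of 94.3 and 84.3 CPM (counts scaled to library size) and levels of 132.2 and 149.6 CPM in those labelled PRMT5 KD (log2 fold change 0.66 ± 0.12, SE; FDR = 0.00549). The paper reports silencing by the PRMT5 shRNA from an immunoblot, and the protein was not measured here. The cell type was checked with 11 squamous and epithelial genes. KRT5, KRT14, KRT6A, KRT17, SFN, EPCAM and CDH1 were too low to be tested, and KRT5 had 0 counts in both control libraries, whereas EGFR stood at 340.0 to 375.5 CPM in control and 161.8 to 180.6 CPM in the others. Of the 4 tested, PKP1 was called higher and TP63, DSG3 and EGFR lower. The low counts of the keratins, SFN, EPCAM and CDH1 go against the squamous label of the line, while other genes of the list were expressed. In control DSG3 stood at 43.1 and 36.5 CPM, PKP1 at 8.29 and 8.56 CPM and TP63 at 5.51 and 6.6 CPM. The summed level of the 11 genes was 392.5 to 433.7 CPM in control and 210.5 to 217.6 CPM in the others. That of 8 immune, endothelial and fibroblast genes was 320.9 to 409.6 CPM in control and 188.9 to 208.9 CPM in the others, with CD3E at 0 in every library. Of these 8 genes, 5 were tested, 1 was called higher and 4 lower. The macrophage-associated CD68 rose from 94.7 and 113.1 CPM to 152.6 and 169.7 CPM and made up most of the sum under the PRMT5 KD label, while the fibroblast collagen COL3A1 fell from 102.4 and 146.6 CPM to 2.33 and 4.19 CPM and the endothelial PECAM1 from 7.41 and 9.78 CPM to 0.294 and 0.146 CPM. The part of these markers in the results below was not tested. In bulk RNA, fewer cells of a type and less RNA per cell cannot be told apart.

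Promoters are shown for UQCRFS1 and COX8A, called higher under the PRMT5 KD label, and for NDUFB10, called lower. Their windows hold no exon of a protein-coding gene. The RefSeq table (GRCh38.p14) held 68 of the 88 genes, and the 250 bases before the start site were searched on both strands for the NRF1 motif (the letters GCGCA and GCGC with any base, N, between them), CCGGAAG of the ETS motif and AAGATGG of the YY1 motif. Matches are in capitals, with UQCRFS1 at chr19:29213152-29213401 on the minus strand, COX8A at chr11:63974370-63974619 on the plus strand and NDUFB10 at chr16:1959288-1959537 on the plus strand.
UQCRFS1: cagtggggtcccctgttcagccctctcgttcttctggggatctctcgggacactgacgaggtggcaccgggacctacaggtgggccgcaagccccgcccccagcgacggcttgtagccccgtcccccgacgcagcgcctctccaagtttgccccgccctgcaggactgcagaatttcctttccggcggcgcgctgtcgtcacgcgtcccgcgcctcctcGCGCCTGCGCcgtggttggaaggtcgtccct
COX8A: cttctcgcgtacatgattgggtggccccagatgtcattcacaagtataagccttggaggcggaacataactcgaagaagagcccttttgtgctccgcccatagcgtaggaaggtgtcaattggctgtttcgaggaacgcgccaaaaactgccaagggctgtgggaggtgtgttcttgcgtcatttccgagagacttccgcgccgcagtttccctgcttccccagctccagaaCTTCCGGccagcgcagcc
NDUFB10: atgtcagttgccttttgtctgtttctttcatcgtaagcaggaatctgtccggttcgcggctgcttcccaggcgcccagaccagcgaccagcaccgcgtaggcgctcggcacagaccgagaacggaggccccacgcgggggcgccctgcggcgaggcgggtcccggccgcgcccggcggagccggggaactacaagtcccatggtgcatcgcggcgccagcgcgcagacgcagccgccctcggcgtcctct

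The capitals in UQCRFS1 are an NRF1 match that begins 31 bases before the start, and those in COX8A are an ETS match that begins 18 bases before it. Both match on the strand opposite to the one shown, so the capitals are the reverse complement of the letters searched. NDUFB10 held none of the 3 letter strings. The promoters of NDUFA6, ATP5G1 and ATP5SL, also called higher, held none either, while that of NDUFA13, called lower, held the ETS letters. Whether the letters go with the calls was not tested. NRF1 and the ETS factor GABP are known regulators of respiratory genes. Of the 68 promoters, 14 (20.6%) held the NRF1 letters, against 5.53% of all 27305 promoters and 10.7% of the 9769 promoters of genes tested here. The ETS letters were in 16 of them (23.5%, against 8.82% and 16.4%) and the YY1 letters in 4 (5.88%, against 3.77% and 3.52%). These are matches of letters and not shown to be bound.

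The subunit genes moved little between the groups. Of the 88 genes, 80 passed the filter on low values (RPKM of 0.5 or more in both libraries of either group) and were tested with all 11894 genes. A gene was called at a Benjamini-Hochberg adjusted p (FDR) under 0.05 in edgeR's quasi-likelihood test if its log2 fold change was also 0.5 or more in size. By this rule 6 subunit genes were called higher and 2 lower, which is 10.0% of those tested, whereas 45.5% of all genes tested were called (21.2% higher and 24.4% lower). Among the 11212 genes within the same range of mean expression the share was 45.0%. At an FDR under 0.05 with any fold change, 17 of the 80 (21.2%) passed, against 54.4% of all genes. The number of calls rested on single libraries. Without control replicate 1 there were 1 higher and 1 lower, without control replicate 2 there were 1 and 0, without PRMT5 KD replicate 1 there were 6 and 6, and without PRMT5 KD replicate 2 there were 13 and 0. The shares of all genes called in these fits were 32.5%, 26.2%, 48.0% and 46.6%.

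The fold changes of the 80 genes ran from -0.58 to 0.67 on the log2 scale. Their SD was 0.30, against 1.04 for all genes, and the largest of them was exceeded in size by 37.0% of all genes tested. In all 80 the 95% interval of the log2 fold change lay between -1 and 1, which held for 59.1% of all genes. The median SE was 0.13 for the subunit genes and 0.14 for all genes. The groups of 61 of the 80 genes (76.2%) did not overlap, 36 with both libraries labelled PRMT5 KD above control and 25 below, against 80.5% of all genes. Their median log2 fold change was 0.096, with 49 genes above 0 and 31 below, and the median of all genes was -0.008.

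**Figure D1:**
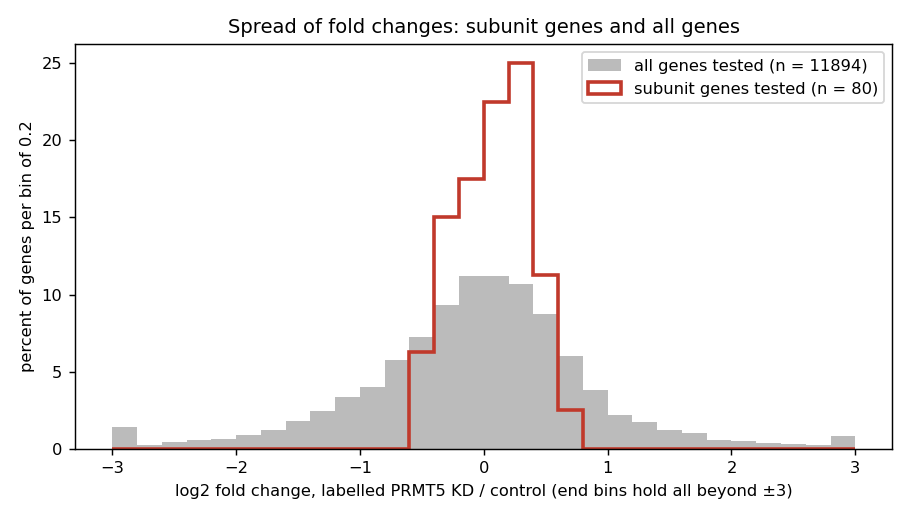
Distribution of log2 fold changes (x axis) as the percent of genes per bin of 0.2 (y axis), for 11894 genes tested (grey) and the 80 subunit genes tested (red line). The subunit genes lay between -0.58 and 0.67, while the grey bars reach 3 in both directions, where the end bins hold all genes beyond it.

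Summed over all 88 genes, the subunits took 3379 and 3581 CPM in control and 3755 and 3668 CPM under the PRMT5 KD label. The sums for complex V were 1209 and 1264 CPM in control and 1360 and 1412 CPM in the others. For complex I they were 915 and 971 CPM in control and 997 and 933 CPM in the others, so the groups overlapped there. Of the 17 tested genes of complex V, 11 had a log2 fold change above 0 and 6 below. ATP5B had means of 405.2 CPM in control and 512.8 CPM in the others (FDR = 0.0618), and ATP5A1 of 308.6 and 283.4 CPM (FDR = 0.417). Per length, with the median length of the annotated coding transcripts, the means over the 4 libraries of the 80 tested genes ran from 3.07 RPKM for ATP5S to 261 RPKM for ATP5B, the catalytic beta subunit of the ATP synthase.

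**Figure D2:**
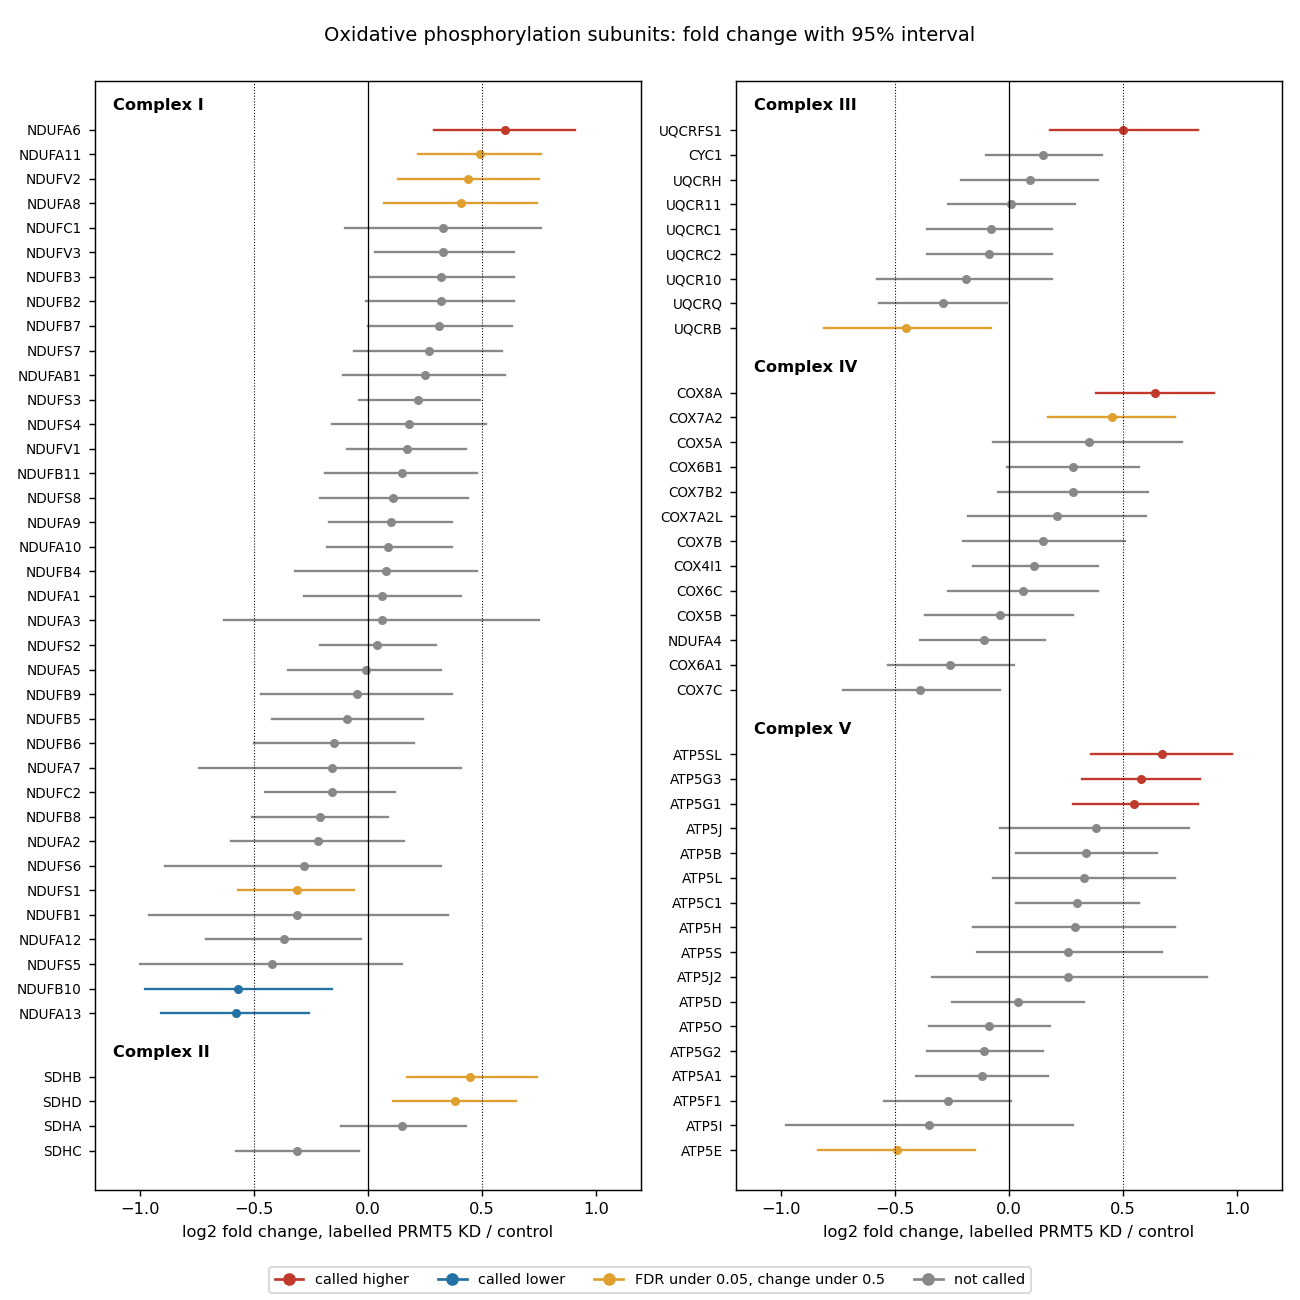
Log2 fold change (x axis) of the 80 subunit genes tested, by complex, with 95% intervals as lines and dotted lines at the threshold of 0.5. Of the 80 points 8 lie beyond the dotted lines in red or blue, and no interval reaches beyond -1 or 1.

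All 37 genes of complex I were tested, 1 was called higher and 2 lower, and 30 did not pass the FDR. The 7 core subunits, which carry the redox centres and the coenzyme Q site in the peripheral arm, had a median log2 fold change of 0.17. None of them was called by edgeR or DESeq2, and 1 was higher and 1 lower at an unadjusted p under 0.05. At that p, 3504 of all 11894 genes were higher and 3698 lower. NDUFS1, the largest core subunit, had 123.2 and 127.5 CPM in control against 102.8 and 99.0 CPM under the PRMT5 KD label (-0.31 ± 0.10, FDR = 0.0428), and so passed the FDR but not the threshold on size. NDUFV2, an iron-sulphur subunit of the NADH-oxidising module, passed it in the other direction (0.44 ± 0.13, FDR = 0.0272). NDUFV1, which binds NADH, was at 37.2 and 38.6 CPM in control and 42.5 and 42.8 CPM in the others and did not pass (0.17 ± 0.11, FDR = 0.225).

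Among the 30 accessory subunits of complex I, NDUFA6 (chr22:42085526-42090884) rose from 17.2 and 18.5 CPM to 28.0 and 26.1 CPM (0.60 ± 0.13, FDR = 0.00885). NDUFA13 (chr19:19515736-19529054), also known as GRIM-19 and linked to cell death, fell from 46.5 and 54.8 CPM to 35.8 and 31.8 CPM (-0.58 ± 0.13, FDR = 0.0119). NDUFB10 (chr16:1959538-1961975), a subunit of the membrane arm, fell from 10.5 and 12.6 CPM to 8.24 and 7.30 CPM (-0.57 ± 0.17, FDR = 0.0294). In each of these 3 genes the groups did not overlap, which held for 80.5% of all genes tested. NDUFA11 and NDUFA8 passed the FDR with changes of 0.49 and 0.41. The remaining 25 accessory subunits lay between -0.42 (NDUFS5) and 0.33. Leaving out 1 library ended calls. NDUFA6 was not called without control replicate 1 (FDR = 0.0795) or 2 (FDR = 0.0603). NDUFA13 was lost without control replicate 2 (-0.46, FDR = 0.110) and fell under the size threshold without PRMT5 KD replicate 2 (-0.49). NDUFB10 was lost without control replicate 1 (FDR = 0.0734), control replicate 2 (FDR = 0.214) or PRMT5 KD replicate 2 (FDR = 0.0593), and under the replicate block (FDR = 0.0628).

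None of the 4 genes of complex II, succinate dehydrogenase, was called by edgeR or DESeq2. At an unadjusted p under 0.05 there were 2 higher and 1 lower, against 3504 and 3698 of all 11894 genes. The iron-sulphur subunit SDHB was at 24.6 and 25.6 CPM in control and 35.8 and 33.1 CPM under the PRMT5 KD label (0.45 ± 0.12, FDR = 0.0191). SDHD, a membrane anchor, also passed the FDR without the size threshold (0.38 ± 0.11, FDR = 0.0266). SDHC, the other anchor, had 93.2 and 102.9 CPM in control and 79.6 and 78.6 CPM in the others (-0.31 ± 0.11, FDR = 0.0519). The flavoprotein SDHA was at 80.6 and 88.2 CPM in control and 89.6 and 97.8 CPM in the others (0.15 ± 0.11, FDR = 0.300), and its counts are uncertain because the pseudogenes SDHAP1, SDHAP2 and SDHAP3 are counted beside it, with up to 1099 counts in a library.

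In complex III, 9 of 10 genes were tested and 1 was called. UQCRFS1 (chr19:29205320-29213151), the Rieske iron-sulphur protein, rose from 39.0 and 35.2 CPM to 57.2 and 47.9 CPM (0.50 ± 0.13, FDR = 0.0203), at the edge of the size threshold. It was not called without control replicate 1 (0.58, FDR = 0.0793), control replicate 2 (0.43, FDR = 0.154) or PRMT5 KD replicate 1 (0.41, FDR = 0.0318), nor under the replicate block, where its change was just under the threshold (FDR = 0.0283). CYC1, cytochrome c1, was at 75.5 and 74.6 CPM in control and 86.3 and 80.7 CPM in the others (0.15 ± 0.11, FDR = 0.256). The core proteins UQCRC1 and UQCRC2 had changes of -0.08 and -0.09, and their groups overlapped. Of the 5 small subunits, UQCRB, which contributes to the coenzyme Q site, passed the FDR (-0.45 ± 0.15, FDR = 0.0462), and the other 4 lay between -0.29 and 0.09. UQCRHL, a copy of UQCRH that can share its reads, had 0.67 to 1.24 CPM and was not tested.

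In complex IV, 13 of 18 genes were tested and 1 was called. COX8A (chr11:63974620-63976543), the ubiquitous form of the smallest nuclear subunit, rose from 45.1 and 44.1 CPM to 71.6 and 67.5 CPM (0.64 ± 0.11, FDR = 0.00360), and it was the only subunit gene called in all 4 fits that left out 1 library (0.62 to 0.69). With exon length and GC content corrected for, COX8A turned to -0.32 (FDR = 0.0472). COX7A2 passed the FDR without the size threshold (39.1 and 41.6 CPM against 52.3 and 57.8 CPM, 0.45 ± 0.12, FDR = 0.0176). The other 11 lay between -0.39 (COX7C) and 0.35 (COX5A). COX4I1, a regulatory subunit, was at 88.9 and 100.0 CPM in control and 99.5 and 104.6 CPM in the others (0.11 ± 0.11, FDR = 0.440). COX5B (-0.04), COX6A1 (-0.26), COX6B1 (0.28), NDUFA4 (-0.11) and COX7A2L (0.21), which assembles supercomplexes, did not pass the FDR.

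Several subunits of complex IV have tissue-restricted isoforms. COX4I2, COX6A2, COX7A1 and COX8C, forms of lung, of heart and muscle or of testis, had 0 counts in all 4 libraries, which allows up to 3 counts each. COX7B2, a testis form, was present at 19.8 to 27.0 CPM, beside COX7B at 18.7 to 23.9 CPM, and how the counting parted reads between such paralogs was not tested. It made up 50.8% to 51.4% of their sum in control and 51.4% and 55.3% in the libraries labelled PRMT5 KD. COX6B2, also a testis form, had 4 counts in control and 27 in the libraries labelled PRMT5 KD, a ratio of 6.34 with an exact 95% interval of 2.21 to 24.9 for counting error only, and it did not pass the filter. Without a filter its log2 fold change was 2.66 (FDR = 0.0252). COX6B1, the common form, stood at 32.1 to 42.6 CPM.

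In complex V, 17 of 19 genes were tested, and 3 were called higher and 0 lower by edgeR and DESeq2. At an unadjusted p under 0.05, 5 were higher and 1 lower, against 3504 and 3698 of all 11894 genes. The c subunit forms the rotating ring of the membrane sector, and 3 genes encode the same mature peptide behind different import signals. ATP5G1 (chr17:48892765-48895871) rose from 25.6 and 25.2 CPM to 37.8 and 36.8 CPM (0.55 ± 0.11, FDR = 0.00769). ATP5G3 (chr2:175176258-175181710) rose from 75.2 and 77.9 CPM to 110.0 and 118.8 CPM (0.58 ± 0.11, FDR = 0.00537). ATP5G2 (chr12:53632726-53677408) was at 67.2 and 70.6 CPM in control and 64.0 and 64.1 CPM in the others (-0.11 ± 0.10, FDR = 0.422), with a 95% interval of -0.36 to 0.15 that does not reach the values of the other c-subunit genes. ATP5G2 supplied 40.0% and 40.6% of the summed CPM of the 3 genes in control and 30.2% and 29.2% in the libraries labelled PRMT5 KD. The difference between the genes was not tested. Without control replicate 1 or 2, ATP5G1 (FDR = 0.0619 and 0.0738) and ATP5G3 (FDR = 0.0546 and 0.0514) were not called.

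**Figure D3:**
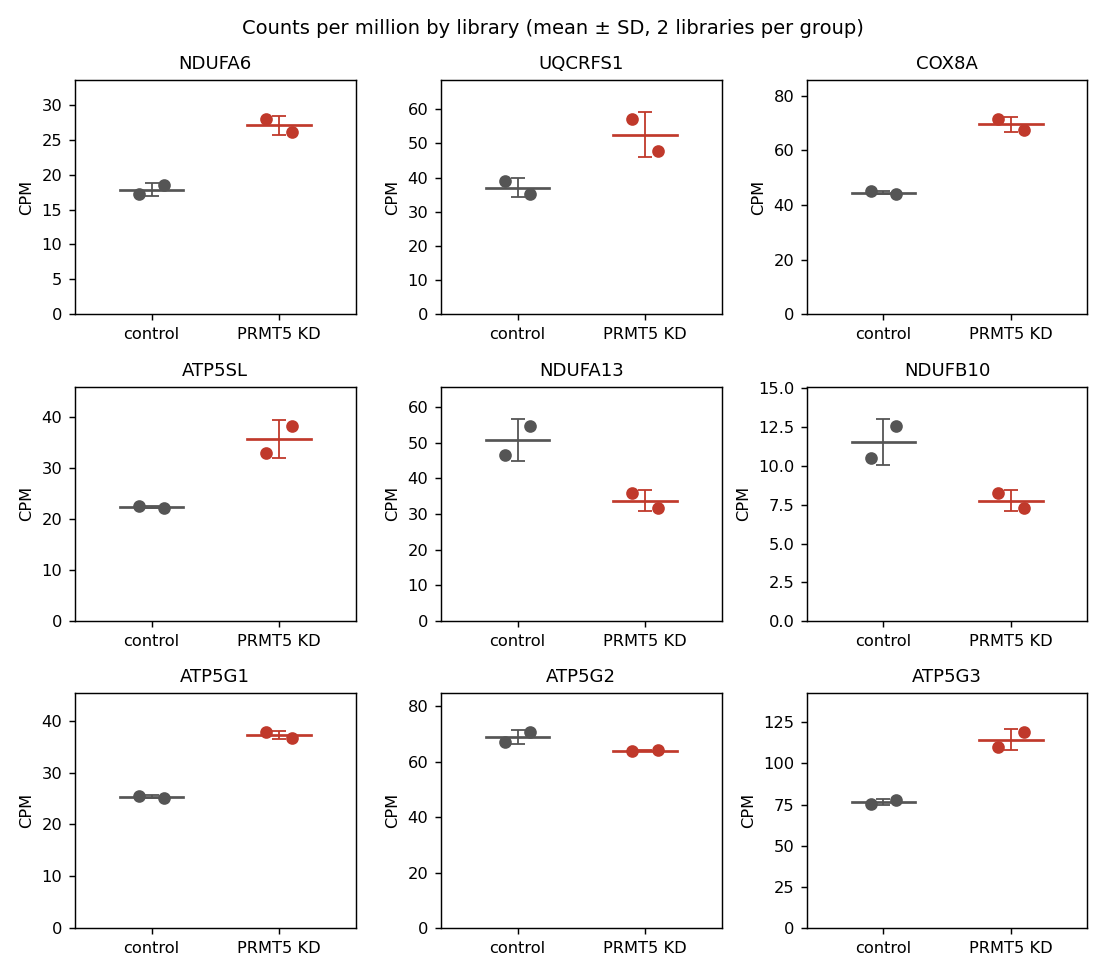
CPM (y axis, from 0) in each library for the 8 called genes and ATP5G2, with control in grey and the libraries labelled PRMT5 KD in red; points are libraries, long bars means and error bars SD of 2 libraries. The groups do not overlap in any panel, as in 80.5% of all genes tested. The means of ATP5G2 are 68.9 CPM in control and 64.1 CPM in the others.

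The catalytic F1 sector showed no call among 5 genes by edgeR or DESeq2. At an unadjusted p under 0.05, 2 were higher and 1 lower, against 3504 and 3698 of all 11894 genes. ATP5B had 406.6 and 403.8 CPM in control and 488.4 and 537.1 CPM in the others (0.34 ± 0.13, FDR = 0.0618). ATP5A1, the alpha subunit, had 296.7 and 320.6 CPM in control and 275.0 and 291.7 CPM in the others (-0.12 ± 0.12, FDR = 0.417). ATP5E, the epsilon subunit, passed the FDR without the size threshold (-0.49 ± 0.14, FDR = 0.0268). The 4 genes of the peripheral stalk lay between -0.27 (ATP5F1) and 0.38 (ATP5J). The 3 tested small membrane subunits ATP5I, ATP5J2 and ATP5L lay between -0.35 and 0.33, and none of these 7 passed the FDR. Reads of ATP5J2 cannot be told apart from those of the read-through ATP5J2-PTCD1, which was listed at 0 in control replicate 2 and PRMT5 KD replicate 1 and at 1.29 and 1.78 CPM in the others. ATP5SL (chr19:41431318-41440717), now DMAC2 and linked to complex I assembly and not to the ATP synthase, had the largest rise of the 80, from 22.6 and 22.3 CPM to 33.1 and 38.4 CPM (0.67 ± 0.13, FDR = 0.00629), and was not called without control replicate 1 (FDR = 0.0550) or 2 (FDR = 0.0648). Among the 77 tested agreed subunits, 5 were called higher and 2 lower.

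The length of the genes moved with these values. The median summed exon length was 2662 bases for the subunit genes and 5382 for all genes tested, and 31 of the 80 fell in the shortest of 10 length classes of similar size. All genes of the shortest class had a median log2 fold change of 0.243 and those of the longest -0.295. The subunit genes of the shortest class had a median of 0.08. With exon length and GC content corrected for, 3 of the 80 were called higher (ATP5SL, NDUFA11 and NDUFS7) and 15 lower, against 21.0% of all genes higher and 23.3% lower, and the median of the 80 was -0.098. Of the 8 calls, 3 remained with the same sign, namely ATP5SL (0.63), NDUFA13 (-0.58) and NDUFB10 (-1.05). COX8A went from 0.64 to -0.32 and NDUFA6 from 0.60 to 0.13. ATP5G1 and ATP5G3 fell under the size threshold at 0.35 (FDR = 0.0393) and 0.40 (FDR = 0.0196). UQCRFS1 fell to 0.31 and did not pass the FDR (FDR = 0.0886). The correction left a median of -0.147 for all genes and of -0.43 for the subunit genes in the shortest class. Whether length is the source of the uncorrected or of the corrected values was not tested.

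**Figure D4:**
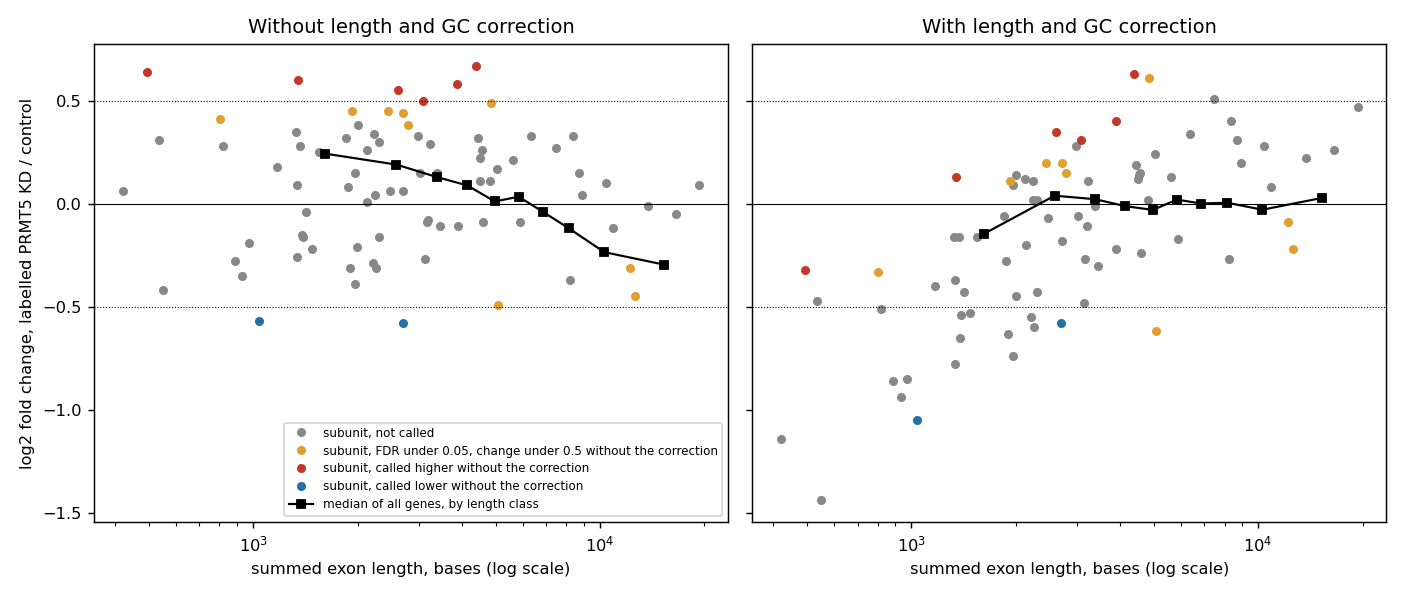
Log2 fold change (y axis) against summed exon length (x axis, log scale) for the 80 subunit genes, without (left) and with (right) the length and GC correction; black squares are medians of all genes by length class. Without the correction the black line runs from 0.243 to -0.295 and the subunits lie within -0.58 to 0.67; with it, the shortest subunits reach -1.44.

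Scaling moved the counts as well. With total counts alone and no TMM factors, the median of all genes was 0.171 and that of the subunit genes 0.276, so that the distance between them was 0.106, against 0.104 with TMM factors. On that scale 19 subunit genes were called higher and 0 lower, which is 23.8% of the 80. Of all 11894 genes, 3508 (29.5%) were called higher and 2198 lower, 48.0% in all.

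**Figure D5:**
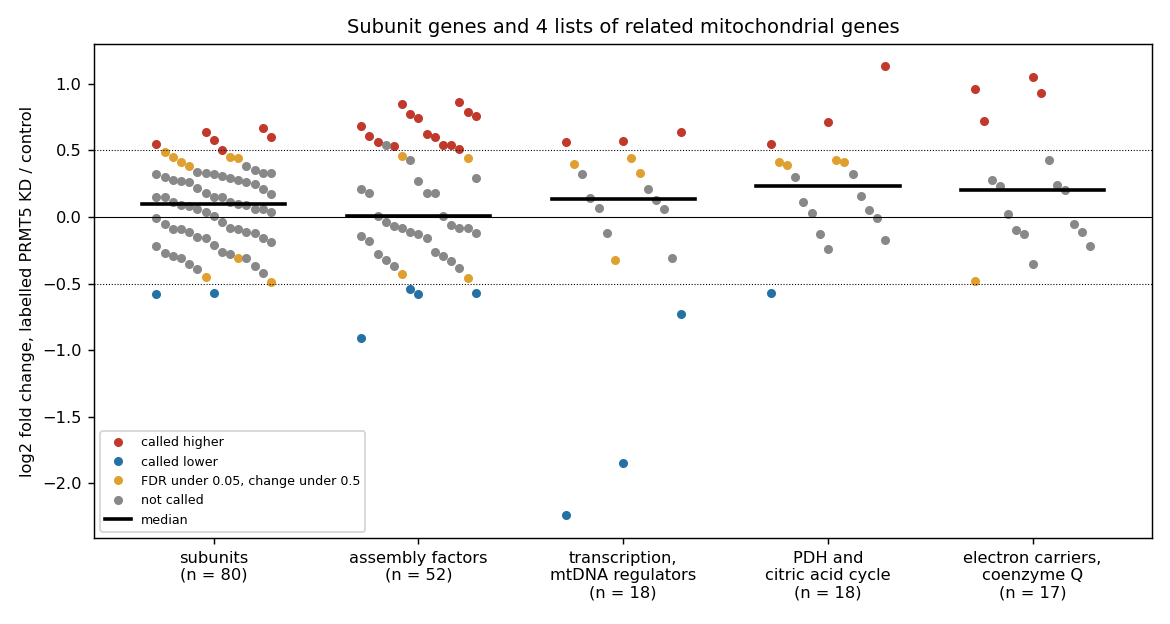
Log2 fold change (y axis) of the 80 subunit genes and of the tested genes of 4 related lists, coloured by call, with medians as black bars and dotted lines at 0.5. The largest changes, HIF1A at -2.24, PPARGC1A at -1.85 and IDH3A at 1.13, lie outside the subunits.

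The share of genes called was 36.5% among assembly factors, 33.3% among regulators, 22.2% among enzymes of the citric acid cycle and 23.5% among electron carriers and coenzyme Q enzymes, against 10.0% of the subunit genes and 45.5% of all genes, and the differences between the lists were not tested. Of 52 tested assembly factors (53 listed), 15 were called higher and 4 lower, with a median of 0.009. With the length and GC correction these were 10 and 7 (median -0.116), and with total counts alone 19 and 1 (median 0.187). The calls among all 11894 genes were 2498 and 2775 with that correction and 3508 and 2198 with total counts alone. COA7, an assembly factor of complex IV, rose from 26.0 and 24.2 CPM to 42.8 and 48.6 CPM (0.86 ± 0.13, FDR = 0.00213), and CMC2 from 15.2 and 14.3 CPM to 27.5 and 25.8 CPM (0.85 ± 0.13, FDR = 0.00240). COX18, which inserts a mitochondrially encoded subunit into the membrane, fell from 21.1 and 21.5 CPM to 11.0 and 11.6 CPM (-0.91 ± 0.13, FDR = 0.00205). TTC19, a complex III factor, fell as well (-0.58 ± 0.11, FDR = 0.00667), a call lost without control replicate 2 (FDR = 0.0744) and just under the size threshold without PRMT5 KD replicate 1.

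Of 18 tested regulators of respiratory gene transcription and mitochondrial DNA (20 listed), 3 were called higher and 3 lower, with a median of 0.136. With total counts alone these were 6 and 2, against 3508 and 2198 of all 11894 genes. HIF1A, the oxygen-regulated factor of the hypoxia response, fell from 1800.6 and 1791.5 CPM to 481.8 and 279.0 CPM (-2.24 ± 0.28, FDR = 0.00153). PPARGC1A, the coactivator PGC-1alpha that drives mitochondrial biogenesis, fell from 6.42 and 6.50 CPM to 1.70 and 1.88 CPM (-1.85 ± 0.22, FDR = 0.00104). The nuclear receptor ESRRA, its partner, rose from 39.0 and 41.4 CPM to 69.6 and 55.7 CPM (0.64 ± 0.14, FDR = 0.0100), and the related coactivator PPRC1 rose from 153.0 and 132.6 CPM to 201.2 and 222.4 CPM (0.57 ± 0.13, FDR = 0.0104). ESRRA was not called without control replicate 1 (FDR = 0.0857) or 2 (FDR = 0.0711), nor PPRC1 without control replicate 2 (0.47, FDR = 0.103).

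All 18 enzymes of the pyruvate dehydrogenase complex and the citric acid cycle were tested, 3 were called higher and 1 lower, and the median was 0.230. With total counts alone these were 8 and 0, against 3508 and 2198 of all 11894 genes. IDH3A, the catalytic subunit of isocitrate dehydrogenase, rose from 26.3 and 24.6 CPM to 56.1 and 55.5 CPM (1.13 ± 0.11, FDR = 0.000623). PDHX, a structural part of pyruvate dehydrogenase, rose (0.71 ± 0.12, FDR = 0.00408) and PDHB, of its E1 component, fell (-0.57 ± 0.10, FDR = 0.00503), though PDHB was not called without control replicate 2 (FDR = 0.0561). Of the 17 electron carriers and coenzyme Q enzymes, 4 were called higher and 0 lower by edgeR, and none lower by DESeq2. Their median was 0.204. At an unadjusted p under 0.05, 4 were higher and 2 lower, against 3504 and 3698 of all 11894 genes. With the length and GC correction the calls were 4 and 1, and with total counts alone 5 and 0 (3508 and 2198 of all genes). PDSS1, which makes the side chain of coenzyme Q, rose (1.05 ± 0.25, FDR = 0.0124) and so did DHODH, which feeds electrons to it (0.96 ± 0.18, FDR = 0.00568). Neither was called without control replicate 1 (FDR = 0.0558 and 0.0597) or 2 (FDR = 0.114 and 0.0527). CYCS, cytochrome c, was named after its value had been seen. It rose from 72.5 and 66.2 CPM to 136.1 and 128.7 CPM (0.93 ± 0.11, FDR = 0.00111), whereas CYC1, UQCRFS1 and the complex IV genes on either side of it in the chain lay between -0.39 and 0.64.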

How the data were processed

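RNA-seq of 4 UMSCC74B libraries was analysed. The authors deposited estimated counts per gene, not normalized. The submitters' processing notes name STAR, Salmon, DESeq2 and GRCh38, and the paper's methods name FeatureCounts, so the counting program is uncertain. Names were matched to GENCODE release 44 (18915 protein-coding) and counts were rounded. Genes that reached an RPKM of 0.5 in each of the 2 libraries of a group were tested with edgeR 4.0.16 (quasi-likelihood test, TMM, no replicate term) in R 4.3.3, and p-values were adjusted over all genes. Calls needed an FDR under 0.05 and a log2 fold change of 0.5 or more in size. CPM are scaled by TMM. Intervals and floors cover counting error only, where counts are given. In simulated data with 11894 genes, 200 were changed, each by 1 or 2 on the log2 scale. Of the changes of 1, 87% were recovered, and of those of 2, 100%, while 12.6% of calls were unchanged genes. Changes as small as those of the called subunit genes were not simulated. Nor were changes in as large a share of genes as the 45.5% called here, so these rates need not hold for the data. Members and lists were chosen with earlier results of these data known. The genes named are, per complex or list, up to 2 called genes with the largest change each way, and a list of catalytic subunits and isoforms. Replicate numbers were not treated as pairs.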

Additional observations from a re-analysis of the deposited data

How the results depend on the processing

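Under DESeq2 1.42.0, RLE or upper quartile factors and non-robust dispersion, the counts stayed at 6 higher and 2 lower. The other settings moved them as follows, and the cause was not tested. With total counts alone there were 19 higher and 0 lower (7, 2, 1, 3 and 6 higher in complexes I to V, median 0.276), and 48.0% of all genes were called. With filterByExpr there were 11 higher (3, 1, 1, 3 and 3), of which 10 were among the 80, and 44.1% of all genes were called. Without a filter, and with all gene names, there were 10 higher (2, 1, 1, 3 and 3, and 3, 1, 1, 2 and 3). Of these, 9 and 10 were among the 80, and 36.6% and 44.8% of all genes were called. With the length and GC correction there were 3 higher and 15 lower (2, 0, 0, 0 and 1 higher, median -0.098), and with the replicate block added 3 and 14 (median -0.100). In these fits 44.3% and 42.8% of all genes were called. The replicate block alone gave 5 higher and 1 lower, with 0 in complex III and 43.7% of all genes called. Same-numbered libraries deviated with a correlation of -0.102 and share only a number. Crossing the numbers, added after the data were seen, gave 5 higher and 2 lower, with 0 in complex III and 46.1% of all genes called. At a threshold of 1, 0 were called in either direction, while 22.1% of all genes changed by at least that much, at any FDR. Leaving out 1 library gave 1 to 13 higher and 0 to 6 lower, with 0 to 4 higher in complex I, 0 to 1 in II and in III, 1 to 2 in IV and 0 to 5 in V, and a median of 0.039 to 0.161. PRMT5 stayed higher in every setting run, at 0.57 to 0.78 with 1 library left out and at 0.55 to 0.84 over the other settings, and missed the FDR without control replicate 2 (0.58). 20 of the 80 changed sign with the length and GC correction and 13 with total counts alone. Among the genes of the naming rule, signs turned for COX8A (-0.32 after correction for length and GC, FDR = 0.0472, and FDR = 0.0844 with the block), COX6B1 (-0.16), ATP5A1 (0.08 and 0.09), and, with total counts alone, UQCRC1 (0.09), COX5B (0.14), ATP5A1 (0.06), ATP5G2 (0.07) and NDUFA4 (0.06). UQCRC1 turned without PRMT5 KD replicate 2 (range of -0.13 to 0.01 over the libraries left out). COX5B turned with filterByExpr and all gene names (0.03), without a filter (0.01) and without control replicate 2 or PRMT5 KD replicate 1 (range of -0.18 to 0.12 over the libraries left out). Of the other subunit genes given by name, NDUFA8 (-0.33), UQCRH (-0.37), COX5A (-0.16), COX7B (-0.06) and COX7B2 (-0.51) turned with the length and GC correction, and UQCRC2 (0.09) with total counts alone. The planned list of subunits encoded by mitochondrial DNA gave no value.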
